A study of Canis lupus familiaris with 5 samples.

Results

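Canine induced pluripotent stem cells (iPSCs) were compared with primary colony-forming cells, the stage before them, called induced neural stem cell-like cells (iNSLCs). The comparison took 4 of the 5 RNA libraries of the dog series, namely 3 iPSC clones and 1 iNSLC library, and covered all 32220 gene models of the count table. All cells came from ear skin fibroblasts of 1 adult dog, named K9. The fibroblasts had received episomal vectors, plasmids that replicate without integrating, for the human reprogramming factors OCT4, KLF4, SOX2, LIN28 and L-MYC, a dominant-negative mouse Trp53, EGFP as a reporter, and KLF2, NANOG, GLIS1 and KDM4D. Colonies that grew in NSM, a medium made for naive-state stem cells, gave the iNSLCs (passage 2). Moving cells of this stage to an embryonic stem cell medium with basic fibroblast growth factor and serum replacement gave iPSC colonies. These were picked and expanded as clones (iPSC 1 at passage 9, iPSC 2 and iPSC 3 at passage 8). The label of the iNSLC library carries the number of iPSC 1. Whether iPSC 2 and iPSC 3 came from the same primary colonies is not stated. The remaining library, fibroblasts at passage 1, is shown beside the others for orientation and was also included when models were filtered, scaled and tested. The study's genomic PCR no longer detected the vectors in the iPSC clones, and part of the cells of each clone had an abnormal chromosome number. Stage, medium and passage changed together, so their parts cannot be told apart. Any reads from vector sequences or mouse feeder cells were not separated from those of dog genes.

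Pluripotent stem cells of the primed kind depend on fibroblast growth factor signalling and can form all germ layers. Neural stem cells are restricted to neurons and glia, and fibroblasts are matrix-producing cells that secrete collagens and other extracellular proteins. During reprogramming, the program of the starting cell has to be shut down and a self-sustaining pluripotency network has to be started. The files identify gene models by Ensembl dog IDs and give no symbols, and of the 32220 IDs 0 could be matched to the gene table at hand. The labelled cell types were therefore not checked against marker genes, and models are described by their position on CanFam3.1, their exons and their level.

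The iNSLC library was the shallowest, at 11699186 counts, against 20021139 to 34317091 counts in the iPSC clones and 33280017 in the fibroblasts. Levels are given as CPM, counts scaled to the library total after TMM normalization, which makes samples comparable for 1 model. Levels of different models are compared only as TPM, which divides by exon length and scales each library to the same sum. A floor of 3 counts corresponds to 0.262 CPM in the iNSLC library and to 0.0810 to 0.133 CPM in the clones. Such floors, and the intervals given with ratios, cover counting error only. They take each count as independent. If both reads of a pair were counted, the intervals are too narrow. There was 1 iNSLC library, so its values carry no replicate error.

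More gene models were lower than higher in iPSCs. Of 17479 models tested with edgeR's quasi-likelihood test, 1348 (7.71%) were called lower and 613 (3.51%) higher at an adjusted p under 0.05. Among the called models, the lower ones also moved further, with a median log2 fold change of -3.69, against 2.51 for the higher ones. Over all tested models the median was 0.20. The 5th and 95th percentiles were -3.82 and 5.92, so there the upper tail was the longer one. A change of less than 2-fold was fitted for 9051 models, or 51.8% of those tested. All 3 clones lay above the iNSLC library in 7305 models (41.8%) and all 3 below it in 5999 (34.3%), and in the other 4175 the clones did not all lie on the same side. Models that did not overlap were thus common, and more of them lay above than below, unlike the calls.

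**Figure D1:**
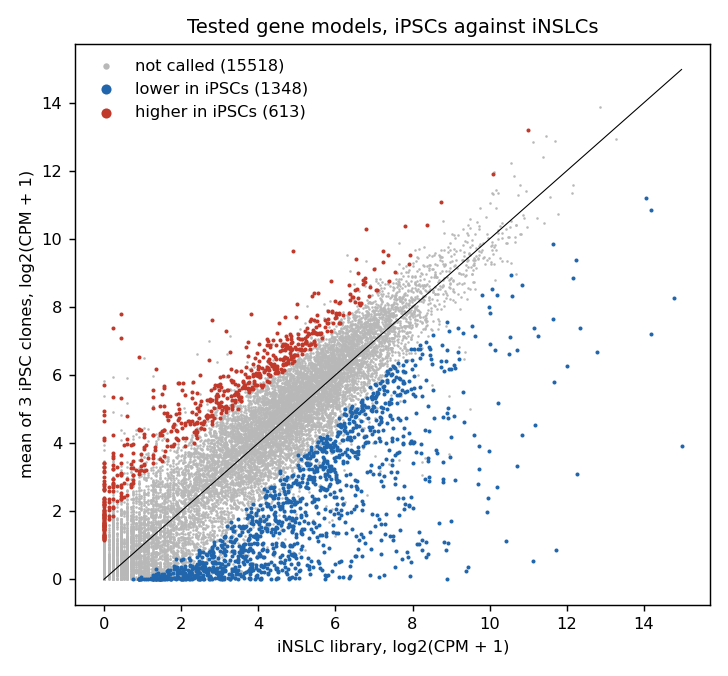
Level of each of the 17479 tested gene models in the iNSLC library (x axis) and as the mean of the 3 iPSC clones (y axis), both as log2(CPM + 1), with 1 point per model and the line of equal levels. The 1348 models called lower (blue) spread further from the line than the 613 called higher (red).

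A rule that needs no test also found more lower than higher models. Among 10321 models with at least 10 CPM in iNSLCs or on average in iPSCs, 776 (7.52%) were lower in every clone by 4-fold or more, and 267 (2.59%) were higher by that much. Of the 776, 693 (89.3%) were also called lower by edgeR, and of the 267, 222 (83.1%) were called higher. The rule and the test share the counts, the scaling and the single iNSLC library, so this overlap is no independent support. The balance changed with the level of the models. Among models with a mean of 1 to 10 CPM over the 4 libraries, 12.0% were called lower and 3.29% higher. Above 100 CPM the shares were 6.05% and 5.95%. Under 1 CPM, 141 of 3600 models (3.92%) were called lower and 3 (0.0833%) higher, both below the shares of all tested models. The part that the lower depth of the single iNSLC library plays in this was not tested.

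The spread in these tests comes from the 3 clones alone, which are of 1 dog, and the iNSLC library was assumed to vary like them. Without iPSC 3 edgeR called 0 models, with 4863 at an unadjusted p under 0.05, while DESeq2 called 938 higher and 1441 lower and limma-voom 25 and 381. Without iPSC 2 edgeR called 1555 higher and 2604 lower, and without iPSC 1 it called 291 and 1134. With library size as the only scaling, 837 were called higher and 1172 lower, which moved the overall median log2 fold change to 0.36.

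The models called lower had taken a large part of the iNSLC transcriptome. They held 28.7% of the counts of the iNSLC library, against 2.64%, 2.74% and 2.78% in iPSC 1, iPSC 2 and iPSC 3. The mean of the clones was 2.72% ± 0.0744 (SD, n = 3). The models called higher held 1.504% of the iNSLC counts and 7.16%, 7.74% and 7.46% of those of the clones. These sets were chosen by the difference itself, so the shares are descriptions of its size. The loss was concentrated. The 10 lower models with the most counts in iNSLCs held 48.2% of the counts of all lower models. The first of them alone held 3.16% of the library. Among the higher models, the first 10 held 33.2% of their counts in iPSCs.

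**Figure D2:**
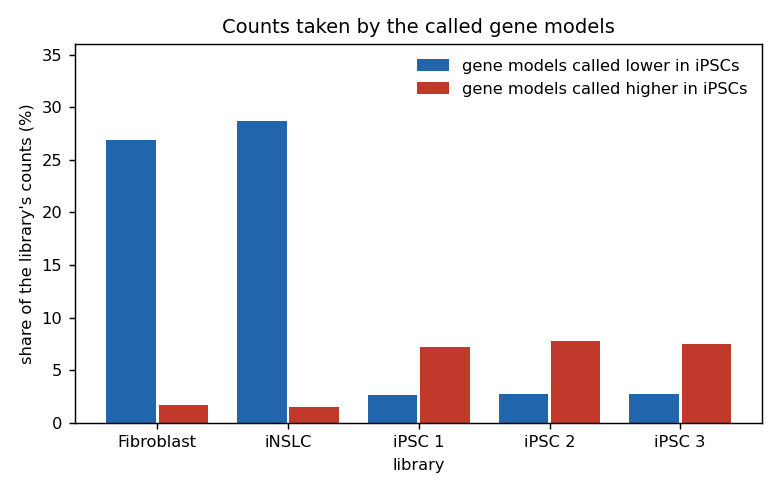
Share of each library's counts (y axis, percent) taken by the models called lower (blue) and higher (red) in iPSCs, for each of the 5 libraries (x axis). The lower models take 28.7% in iNSLCs and 26.9% in fibroblasts, and under 3% in every clone.

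The fibroblast library was on neither side of the comparison but was included in the fit, the filter and the scaling. Without it 717 models were called higher and 1344 lower. In the share of counts held and in median level it was near the iNSLC library in both sets, though single models differed. Models called lower held 26.9% of its counts, and models called higher 1.70%. For the lower models the median level was 30.0 CPM in iNSLCs and 24.9 CPM in fibroblasts, against 2.002 ± 0.124 CPM in iPSCs (SD of the clone medians, n = 3). For the higher models it was 7.15 CPM, 8.82 CPM and 41.7 ± 0.491 CPM in the same order. Of the 1348 lower models, 835 (61.9%) had a fibroblast level within 4-fold of the iNSLC level, with levels under the floor set to it. In 405 (30.0%) fibroblasts were at least 4-fold below iNSLCs, with a median of 0.468 CPM in fibroblasts. The median of the same models was 13.2 CPM in iNSLCs, against 0.563 CPM in iPSCs. The 405 models thus stood highest in the iNSLC library. In the remaining 108 (8.01%) fibroblasts were at least 4-fold above iNSLCs, at medians of 211 CPM (fibroblasts), 24.1 CPM (iNSLCs) and 1.91 CPM (iPSCs). Of the 613 higher models, 477 (77.8%) were within 4-fold in fibroblasts and iNSLCs, 65 were at least 4-fold higher in fibroblasts, and 71 at least 4-fold lower. Medians of the last 71 were 0.195 CPM for fibroblasts, then 6.71 CPM for iNSLCs, then 48.5 CPM for iPSCs. The iNSLC library enters both the calls and these classes, so a chance deviation in it moves both. These classes were not counted over all tested models, so their shares are not read as particular to the called sets.

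The models with the smallest p in each direction, among those with at least 10 CPM in the higher group, differed strongly and evenly across the clones. A small p in this test needs a large difference and little spread between the clones, so the ranking itself favours such models. ENSCAFG00000007199 (chromosome 27, 2221689 to 2229112, 9 exons) had 5.93 CPM in iNSLCs and 177, 210 and 203 CPM in iPSC 1, iPSC 2 and iPSC 3. Every clone was above the iNSLC library, and the fibroblasts had 0.312 CPM. The fitted log2 fold change was 5.05 (SE 0.42, edgeR adjusted p = 0.00327). This SE and those below were derived from the fold change and the F statistic of the test. They restate the test and hold no measured spread of iNSLCs. ENSCAFG00000017705, which consists of 1 exon (chromosome X, 75517407 to 75519218), had 1.57 CPM in iNSLCs and 77.3, 72.3 and 64.2 CPM in the clones. It differed from the previous model in the fibroblasts, which had 29.6 CPM, so its lowest level was in the iNSLC library. The fitted log2 fold change was 5.50 (SE 0.49, edgeR adjusted p = 0.00380).

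In the other direction, ENSCAFG00000009462 (chromosome 38, 198591 to 213796, 3 exons) had 485 CPM in iNSLCs and 1.17, 0.979 and 1.08 CPM in the clones. The fibroblasts had 869 CPM, so both earlier stages were far above all clones. The fitted log2 fold change was -8.80 (SE 0.31, edgeR adjusted p = 0.00144). DESeq2 and limma-voom gave larger SEs for this model, 0.421 and 0.413. ENSCAFG00000025002 (chromosome 36, 7398552 to 7473212, 29 exons) had 103 CPM in iNSLCs, 0.680, 0.534 and 0.594 CPM in the clones, with 162 CPM in fibroblasts. The fitted log2 fold change was -7.40 (SE 0.34, edgeR adjusted p = 0.00144). Without iPSC 3 the adjusted p of these 4 models lay between 0.0585 and 0.0602.

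On the TPM scale, which allows models to be compared, the largest losses among called models were in a small number of very abundant models. A model of 2 exons on chromosome 7 (80966230 to 80968077) had 28771 TPM in iNSLCs and 2105, 4984 and 5078 TPM in the clones (edgeR adjusted p = 0.0283). It lies inside a model of 3 exons (80950042 to 80974511) whose level went from 14762 TPM to 893, 1929 and 1721 TPM. Exons of each overlap 1 other model, so their reads can be shared and they are not independent. A model of 1 exon and 82 bases on chromosome 31 (103596 to 103677) had 11448 TPM in iNSLCs and 1069, 1935 and 2064 TPM in the clones. For these 3 models iPSC 1 was the lowest clone, and fibroblasts lay between iNSLCs and iPSCs, at 10277, 6313 and 4825 TPM.

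The other pair of models among the 5 largest losses of called models had 51 exons each. The model on chromosome 9 (26183852 to 26199927) had 10377 TPM in iNSLCs and 11720 TPM in fibroblasts, against 143, 132 and 83.3 TPM in the clones. Its log2 fold change was -6.52 (edgeR adjusted p = 0.00151). The model on chromosome 36 (30487822 to 30526563), went from 8954 TPM in iNSLCs to 7.43, 2.69 and 2.43 TPM. In both, the fibroblast and iNSLC levels were close and all clones were far lower, but the first still had 119 TPM on average in iPSCs and the second 4.18 TPM.

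Of the 5 largest gains in TPM among called models, 3 were models of the mitochondrial genome, which encodes subunits of the respiratory chain with the RNAs to translate them. The model at 10201 to 11578 had 2546 TPM in iNSLCs and 10998, 16028 and 10250 TPM in the clones (edgeR adjusted p = 0.0343). The models at 7803 to 8006 and 14183 to 15322 had 1262 and 1642 TPM in iNSLCs, and means of 7166 ± 1932 and 6140 ± 825 TPM in iPSCs (SD, n = 3). The first of the 3 overlaps 2 other models and the next 1, so part of their reads can be shared. Of 15 mitochondrial models of at least 200 bases, these 3 were called, and all clones lay above iNSLCs in 13, where 3.51% of all tested models were called higher and 41.8% had all clones above. The mitochondrial genome took 2.48% of all counts in iNSLCs and 6.05%, 9.99% and 6.79% in the clones. The called models held 0.319% in iNSLCs and 1.30%, 1.94% and 1.42% in the clones, so most of the mitochondrial difference lay in models that were not called.

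The other pair of these gains was in nuclear models. A model of 4 exons on chromosome 12 (3533049 to 3538533) had 447 TPM in iNSLCs and 2223, 2357 and 2515 TPM in the clones (log2 fold change 2.34, edgeR adjusted p = 0.01995). A model of 6 exons on chromosome 4 (61779184 to 61785611) had 86.0 TPM in iNSLCs and 873, 927 and 1234 TPM in the clones (log2 fold change 3.51, edgeR adjusted p = 0.0133). In fibroblasts they had 134 and 51.7 TPM, so for both the order was fibroblast, iNSLC, iPSC.

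Most of the abundant transcripts stayed abundant. Of the 100 models with the highest TPM in iNSLCs, 78, 77 and 81 were also among the 100 highest in iPSC 1, iPSC 2 and iPSC 3, and 90 were shared by the lists of all 3 clones. In no clone were 16 of the iNSLC models found among the 100 highest, and their median rank in the clones was 1308. Of these, 14 were called lower, where 7.71% of all tested models were, and 7 were among the 100 highest in fibroblasts. They were chosen by their fall in rank between the same libraries, which favours a lower call. Conversely, 16 models were among the 100 highest in every clone and not in iNSLCs. Of these 16, 2 were called higher, where 3.51% of all tested models were.

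A stricter view of gain and loss is given by models that were present at one stage and not detectable at the other. There were 9 models with at least 10 CPM in each clone but under 3 counts in the iNSLC library, and 8 of them were called higher. In several the clones were close together. A model of 2 exons on chromosome 11 (36493257 to 36499462) is an example, with 21.9, 28.0 and 31.7 CPM in the clones and 0 counts in iNSLCs and fibroblasts. Its level was at least 104-fold higher in iPSCs, with iNSLCs set to the floor (edgeR adjusted p = 0.00409). On chromosome 23 a model of 40 exons (27419030 to 27530941) had 27.8, 16.6 and 28.3 CPM in the clones and no count in iNSLCs, which is at least 92.8-fold higher in iPSCs (edgeR adjusted p = 0.00621). A model of 2 exons on chromosome 5 (32711305 to 32711862) had 35.7, 35.2 and 50.04 CPM and 2 counts in iNSLCs, a ratio of 231 (95% counting interval 64.0 to 1909, edgeR adjusted p = 0.00436). Each of these was near 0 before the iPSC stage, as the fibroblasts had at most 1.48 CPM in any of the 9.

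In 4 of the 9 models iPSC 2 was the highest clone. The model on chromosome X (42028711 to 42029412) had 93.9, 324 and 82.1 CPM in iPSC 1, iPSC 2 and iPSC 3. The model on chromosome 32 (11354096 to 11362391) had 15.0, 115 and 24.2 CPM, and that on chromosome 1 (102481015 to 102491217) 11.4, 57.9 and 20.2 CPM. The model on chromosome 3 (74662402 to 74835102) had 26.1, 137 and 16.8 CPM, and was the 1 model of the 9 that was not called (edgeR adjusted p = 0.0564). The spread between clones was thus larger in these 4 than in the models described before. The remaining pair, on chromosome 25 (18753126 to 18780420) and chromosome 3 (58804790 to 58807189), had means of 18.0 ± 1.93 and 12.1 ± 2.34 CPM (SD, n = 3).

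The reverse pattern, with 10 CPM or more in the iNSLC library and under 3 counts in each clone, held for 23 models, all called lower. The highest was a model of 7 exons on chromosome 9 (55328064 to 55332149), with 477 CPM in iNSLCs and 0 counts in all 3 clones, which is at least 4656-fold lower in iPSCs with each clone set to its floor (edgeR adjusted p = 0.00233). The fibroblasts had 5.23 CPM, so its highest level was in iNSLCs. On chromosome 22 a model of 11 exons (51157797 to 51374705) showed 80.7 CPM in iNSLCs, 0, 0 and 0.0540 CPM in the clones and 7.69 CPM in fibroblasts. On chromosome 20 a model of 3 exons (43324157 to 43332217) reached 52.5 CPM in iNSLCs, while no clone had a count and fibroblasts had 0.0781 CPM. The other models had from 10.1 to 72.6 CPM in iNSLCs, and 9 of the 23 had 0 counts in all clones.

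The fibroblast levels of the 23 models fell into different kinds. With at least 10 CPM, 8 were also present in fibroblasts. On chromosome 34 a model of 5 exons (36718785 to 36735089) reached 47.0 CPM in fibroblasts against 26.8 CPM in iNSLCs, and on chromosome 16 a model of 3 exons (12523396 to 12538428) reached 30.6 against 32.1 CPM. Another 8 had less than 1 CPM in fibroblasts, among them the models on chromosome 10 (6264789 to 6269662), with 72.6 CPM in iNSLCs, and chromosome 9 (37734558 to 37740115), with 30.0 CPM. Of the 23 models, 14 had 2 or 3 exons, as had 3 of the 9 gained models. The median was 3 exons in the 23 and 7 in the 9, with at most 13 and 40. Among all 17479 tested models, 4352 had 2 to 4 exons, which is a wider class. Those with 2 or 3 were not counted separately. The difference in exon number was not tested. The number of models depends on the level required: at 5 CPM it was 22 gained and 48 lost, and at 20 CPM 3 and 12.

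**Figure D3:**
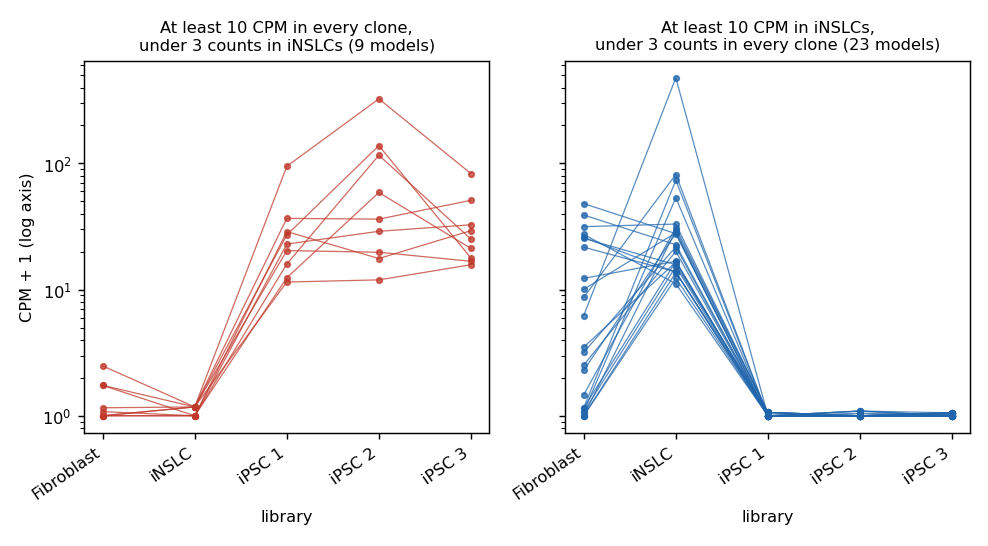
CPM + 1 on a log axis in the 5 libraries (x axis) for the 9 models present in every clone and under 3 counts in iNSLCs (red) and the 23 models with the reverse pattern (blue), with 1 line per model. The gained models lie near the bottom in fibroblasts and iNSLCs, and the lost models range from 10.1 to 477 CPM in iNSLCs.

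Lower models also occurred as neighbours. There were 3 runs of at least 5 neighbouring tested models that were all called lower, and 0 such runs of higher models. With at least 4 neighbours there were 7 runs of lower and 1 of higher models. As 7.71% of all tested models were called lower and 3.51% higher, runs of lower models were likelier from the start. Whether the runs exceed what these shares give was not tested. In the run on chromosome 6 (31326223 to 31399570) all 5 models lay on the plus strand. Their levels in iNSLCs were 16.4, 6.89, 3.40, 1.40 and 5.41 CPM in the order of their position. In the clones they reached 0.432 CPM at most, and in fibroblasts 4 had 0 counts and the last had 0.117 CPM. The group was therefore detected almost solely in the iNSLC library, at low levels, with log2 fold changes from -7.56 to -4.59 (edgeR adjusted p from 0.00969 to 0.0360).

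The run on chromosome 5 (62412904 to 62577402) behaved differently in fibroblasts. Its models had 2.09, 4.45, 1.40, 3.14 and 145 CPM in iNSLCs and 2.97, 5.74, 2.85, 1.05 and 96.1 CPM in fibroblasts. The first 4 fell to at most 0.297 CPM in any clone, and the last, on the opposite strand from the others, to 30.5, 15.4 and 25.4 CPM. Its log2 fold change of -2.61 was the smallest of the run (edgeR adjusted p from 0.0184 to 0.0403 over the run).

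The run on chromosome 18 (46206173 to 46334973) joined 3 single-exon models of 69 to 95 bases with 2 larger models of 7 and 13 exons. The small models had 27.2, 34.1 and 16.6 CPM in iNSLCs and between 0.4005 and 1.13 CPM in the clones. The larger ones had 93.9 and 12.6 CPM in iNSLCs. The model of 7 exons remained measurable in iPSCs, at 4.05, 8.28 and 6.67 CPM, while that of 13 exons, also among the 23 models above, had at most 0.0618 CPM. In none of the 3 runs did the exons of a model overlap those of another. Without iPSC 1 there was 1 such run, without iPSC 2 there were 14 runs of lower and 2 of higher models, and without iPSC 3, where edgeR called nothing, there were 0.

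**Figure D4:**
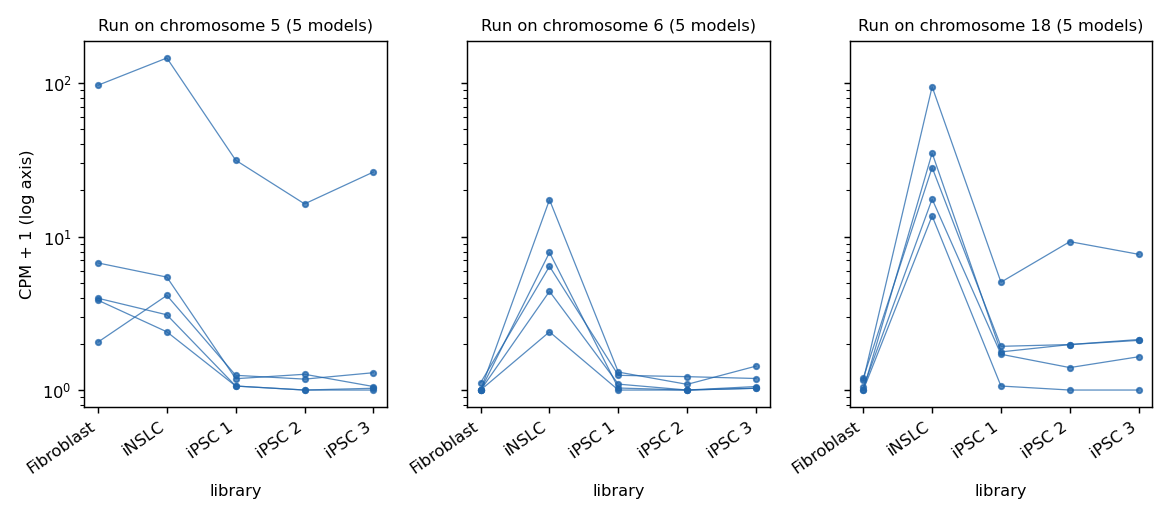
CPM + 1 on a log axis in the 5 libraries (x axis) for the 5 models of each run of neighbours called lower, with 1 panel per chromosome and 1 line per model. On chromosomes 6 and 18 iNSLCs stand above all other libraries, while on chromosome 5 the fibroblasts have from 1.05 to 96.1 CPM.

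The share of lower models was larger for models of longer genomic span, beyond the smallest class. It was 6.24% for spans from 5 to 20 kb, 8.04% from 20 to 100 kb, 10.8% from 100 to 500 kb and 17.7% (17 of 96) from 500 kb, against 7.71% of all tested models. The smallest models, up to 5 kb, had 7.12%. The share of higher models went the other way beyond 100 kb, with 2.27% from 100 to 500 kb and 1 of 96 from 500 kb. The median log2 fold change was 0.35 for 5 to 20 kb and -0.72 from 500 kb. Of the 96 longest models, 57 were below iNSLCs in all clones and 12 above, against 34.3% and 41.8% of all tested models. Among models with a mean of 10 to 100 CPM the share also rose from 5 kb on, with 4.92% from 5 to 20 kb, 7.57% from 20 to 100 kb, 10.7% from 100 to 500 kb and 15.2% (7 of 46) from 500 kb, against 7.40% of all models in that range. Models up to 5 kb had 8.44% there and so did not follow this order. By the rule of 4-fold in every clone the share from 500 kb was 10.9%, against 7.52% overall.

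The share of higher models was larger for models of many exons. It was 2.52% for 1 exon, 2.30% for 2 to 4, 3.12% for 5 to 9, 4.44% for 10 to 19 and 5.29% for 20 or more, against 3.51% of all. The share of lower models showed no such order, lying between 7.26% and 8.51%. Models with few exons also had lower CPM, with a median of 2.49 CPM for 2 to 4 exons and 38.7 CPM for 20 or more. CPM is not divided by exon length, so these medians do not compare transcript abundance. Within 10 to 100 CPM the shares of higher models were 5.06% for 1 exon and then 4.02%, 3.56%, 5.19% and 5.99%, with no steady order, and by the rule of 4-fold in every clone they were 3.18% for 2 to 4 exons and 3.30% for 20 or more. The difference by exon number was thus small where CPM was held in 1 range or the fold rule was used.

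**Figure D5:**
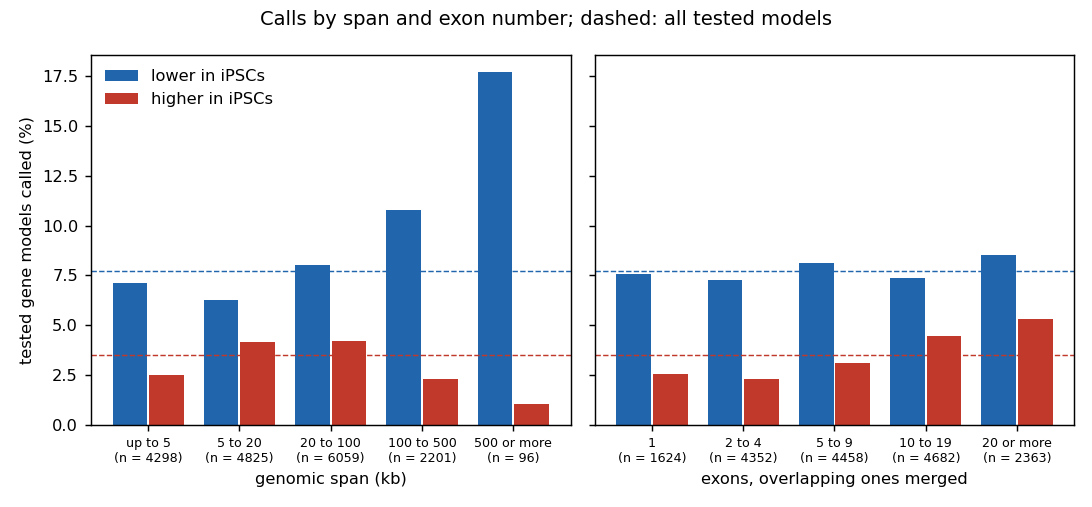
Percent of tested models called lower (blue) and higher (red) in iPSCs (y axis), by genomic span in kb (left) and by number of exons with overlapping ones merged (right), with the number of models per class. Dashed lines mark 7.71% and 3.51%, the shares over all tested models, and the lower share reaches 17.7% in the longest class.

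On nuclear chromosomes the share of lower models ran from 4.39% on chromosome 22 to 12.1% on chromosome 36, and that of higher models from 1.02% on chromosome 33 to 5.88% on chromosome 31, against 7.71% and 3.51% of all tested models. Chromosome X had 33 higher (4.65%) and 39 lower models (5.49%) of 710. The mitochondrial genome had 3 higher and 0 lower of 24 tested models, including the short ones. These shares were not tested against each other.

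The clones differed in how far they lay from the iNSLC library. Counting models with at least 10 CPM in the clone or in iNSLCs, iPSC 1 had 451 models above and 958 below iNSLCs by 4-fold or more. The numbers were 585 and 1098 for iPSC 2, and 487 and 1224 for iPSC 3. Lower models prevailed in each clone, but all were read against the same iNSLC library. At a fold of at least 32, iPSC 2 had most of the higher models, with 85 against 21 in iPSC 1 and 35 in iPSC 3, and fewest of the lower ones, with 246 against 295 and 315. Among the 776 models lower in every clone by that rule, the highest clone, that is the one nearest to iNSLCs, was iPSC 2 in 331, iPSC 1 in 251 and iPSC 3 in 194. Among the 1348 models called lower by edgeR it was iPSC 1 in 515, iPSC 2 in 464 and iPSC 3 in 369, so which clone came first depended on the rule. Among the 267 higher models, the clone nearest to iNSLCs was iPSC 1 in 106, iPSC 2 in 86 and iPSC 3 in 75. Among the 613 models called higher it was iPSC 2 in 233, iPSC 1 in 227 and iPSC 3 in 153, so the first place again changed with the rule, while iPSC 3 was the least often nearest in all 4 sets.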

How the data were processed

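The authors deposited raw counts of reads per gene model, not normalized, for 5 libraries. Per the submitters' processing notes, Trim Galore 0.4.0, STAR 2.5.3a, featureCounts 1.5.2 and CanFam3.1 were used. For the counting, the strand and multi-mapping settings were not stated. Among counts from 1 to 10, 74.0% were even in iNSLCs and 59.6% to 64.0% elsewhere. Both mates of a pair may thus have been counted. Halved counts were tried in the tests, but not for the floors and intervals. The series table and the single-library tables differed in 0 values.

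Groups followed the labels. A fit of 3 groups to all 5 libraries was made with edgeR 4.0.16 in R 4.3.3 (TMM, filterByExpr, quasi-likelihood test, Benjamini-Hochberg adjustment over 17479 models), with 2 residual degrees of freedom from the clones. DESeq2 1.42.0 and limma-voom (limma 3.58.1) were alternatives. The procedure was tested on simulated data. TPM used the exon length in the files. Exons were counted after merging overlapping ones.

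The members and groups were chosen with earlier results of these data known. Models given by ID are the first 2 per direction by p with at least 10 CPM in the higher group. Models given by position are those present at only one stage, the 5 largest TPM differences per direction among called models and runs of 5 or more. Marker lists were not analysed, as no ID had a symbol. Models singled out from these sets as examples were chosen after their values were seen.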

Additional observations from a re-analysis of the deposited data

How the results depend on the processing

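The numbers of models called were more sensitive to the clones, the test and the threshold than to scaling. With no filter on low counts 926 models were called higher and 1701 lower. DESeq2 called 1551 higher and 1929 lower, and limma-voom 279 and 1422. Higher models made up 31.3% of the calls in the main fit, 44.6% with DESeq2 and 16.4% with limma-voom. The size of the excess of lower models thus depended on the test. The stricter threshold of 0.01 left 16 higher and 308 lower models. Leaving out each clone in turn gave 0 to 1555 higher and 0 to 2604 lower models, the lowest numbers without iPSC 3 and the highest without iPSC 2. Alternatives added after the data were seen combined both choices. DESeq2 gave 589 higher and 1233 lower models without iPSC 1, 1154 and 1916 without iPSC 2, and 938 and 1441 without iPSC 3. Limma-voom gave 241 higher and 1329 lower models without iPSC 1, 1383 and 2558 without iPSC 2, and 25 and 381 without iPSC 3. The causes were not tested. Other scalings, halved counts, and leaving out the mitochondrial models or the fibroblast library kept both numbers within 1.5 times. The log2 fold changes of the 4 models given by ID kept their sign in all 12 alternatives, and were past the threshold in 11, the exception being the fit without iPSC 3. Of 1348 lower models, 1324 were also called by DESeq2 and 1234 by limma-voom, and of 613 higher models 611 and 264. No paired analysis was possible because the groups share only 1 replicate number.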

Other observations

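A small number of models moved apart between clones rather than with the stage. In 6 models with at least 10 CPM in iNSLCs or on average in iPSCs, 1 clone was at least 4-fold above and another at least 4-fold below the iNSLC library. The highest clone was iPSC 2 in 5 of them and iPSC 3 in the other. These models were counted after the values were seen, and no test was made.

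Of the 613 higher models, 176 (28.7%) had under 1 CPM in fibroblasts, and of the 1348 lower models 263 (19.5%). The same share over all tested models was not computed, so neither value is read as a trait of its set. Exons that overlap those of another model were found in 71 of the higher, 91 of the lower and 1708 of all 17479 tested models. Reads of such models may be shared, and their values are less certain.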
